A study of Sus scrofa with 4 samples.

Results

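Genes that drive cells through mitosis, and genes of the spindle checkpoint that holds cells until every chromosome is attached, were examined in RNA sequencing libraries of porcine cells taken through reprogramming. The 48 genes were chosen by name for their role in mitosis, out of 25880 genes in the deposited count table. Earlier results of these data were known when the genes were chosen. A row was found for 45 of them, 42 through the pig Ensembl identifier and 3 (MKI67, PTTG1 and AURKA) through their position on the Sscrofa11.1 assembly, and 43 had enough counts to be tested.

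All 4 libraries went back to ear skin fibroblasts of 1 post-neonatal pig. The iPSC group (induced pluripotent stem cells) held 2 clones at passage 3, grown in an embryonic stem cell medium to which activin A, TGF-β1 and IWP2, an inhibitor of WNT secretion, were added. The iNSLC group (induced neural stem cell-like cells) was 1 library of cells at passage 1, from colonies that emerged in NSM, a medium used for naive-state pluripotent cells. These cells had received episomal vectors that carried KDM4D, GLIS1, NANOG and KLF2, the human factors SOX2, KLF4, OCT4, LIN28 and L-MYC, EGFP, and a mouse p53 mutant with dominant-negative action. The fibroblast group was 1 library at passage 1. The iPSC clones came from transfected cells as well, so that vector history, medium, passage and cell state changed together and cannot be told apart here, and each group stands for 1 animal.

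Entry into mitosis is set off by CDK1 bound to a B-type cyclin, which CDC25 phosphatases activate. Polo-like and Aurora kinases then build the spindle, condensins compact the chromosomes, and the NDC80 complex ties kinetochores to microtubules. Until all kinetochores are tied, the checkpoint proteins of the BUB and MAD families hold back CDC20, the activator of the ubiquitin ligase that destroys cyclin B and securin and thereby frees separase to split sister chromatids. Most of these genes are transcribed late in the cell cycle under B-MYB (MYBL2), FOXM1 and the MuvB complex, so their RNA is commonly read as a sign of how many cells are dividing. Pluripotent cells are known for short cycles with brief gap phases.

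The libraries held 21640374 and 41296933 counts for iPSC clones 1 and 2, 25784594 for iNSLCs and 62421521 for fibroblasts. Levels are given as CPM, counts scaled to a common library size after correcting each library by TMM (trimmed mean of M values, a factor that balances libraries of different composition). The 7 fibroblast markers summed to 866 and 885 CPM in the iPSC clones, 52240 CPM in iNSLCs and 137100 CPM in fibroblasts, with none of the 7 at 0 in any library. Fibroblast marker RNA was thus abundant in the iNSLC library, at a share that differed by marker: COL3A1 was at 16660 CPM in iNSLCs and 19210 CPM in fibroblasts, and PDGFRB at 85.6 CPM in iNSLCs and 680 CPM in fibroblasts. Whether this RNA came from remaining fibroblasts, from the iNSLCs themselves or from feeder cells, and its part in the mitotic gene levels, was not tested. The paper describes mouse embryonic feeder cells for its marmoset inductions. Whether the porcine cultures held them is not stated in the sources used. The 5 pluripotency markers summed to 974 and 1078 CPM in the iPSC clones, 484 CPM in iNSLCs and 0.238 CPM in fibroblasts, where NANOG and POU5F1 were at 0. The 5 neural stem cell markers summed to 775 and 886 CPM in the iPSC clones, 767 CPM in iNSLCs and 52.7 CPM in fibroblasts, with FABP7 at 0 in fibroblasts. The sum was near that of the clones in iNSLCs, while FABP7 (15.0 and 22.5 CPM in the clones, 83.0 CPM in iNSLCs), MSI1 (85.3 and 97.2 CPM in the clones, 151 CPM in iNSLCs) and PAX6 (2.32 and 6.71 CPM in the clones, 14.6 CPM in iNSLCs) were each higher in iNSLCs than in both clones. PAX6 was highest in fibroblasts, at 21.5 CPM. The vectors also carried OCT4 (POU5F1), NANOG, LIN28 (LIN28A) and SOX2, which count among these markers. In iNSLCs POU5F1 was at 40.5 CPM, NANOG at 0.209 CPM, LIN28A at 202 CPM and SOX2 at 134 CPM. Whether reads of these genes in the transfected cells came from the vectors or from the pig genes was not tested.

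Nearly the whole group was more abundant in iPSCs than in fibroblasts. Of the 43 genes tested, 40 rose, 1 (CDC25B) fell, and 2 (SPC24 and ANLN) did not pass the test. Over all 15739 genes tested, 29.6% rose and 27.5% fell (edgeR quasi-likelihood test, Benjamini-Hochberg adjusted p under 0.05). The median log2 ratio of the 43 genes was 1.98, a 3.95-fold difference, against 0.11 over all genes tested. The log2 ratios of the 40 genes that rose ran between 0.72 (BUB3) and 2.85 (CDK1), with edgeR adjusted p between 0.000344 and 0.0072. Because these are bulk libraries, more cells in mitosis and more RNA per mitotic cell cannot be told apart.

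The test had 1 residual degree of freedom, that between the iPSC clones, and took their spread to stand for the lone iNSLC and fibroblast libraries. edgeR also moderated that spread with the spread of all genes, so the p-values rest largely on values shared across genes. They measure no spread between animals, or between cultures of the iNSLC or fibroblast group. Nothing in the labels says how the clones relate beyond their numbers. With total counts in place of TMM, every iPSC to fibroblast log2 ratio moved up by 0.57, and the share of calls over all genes that were higher became 72.8%, against 51.9% with TMM. The mitotic genes then stood at 41 higher and 1 lower, SPC24 being the gene added.

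**Figure D1:**
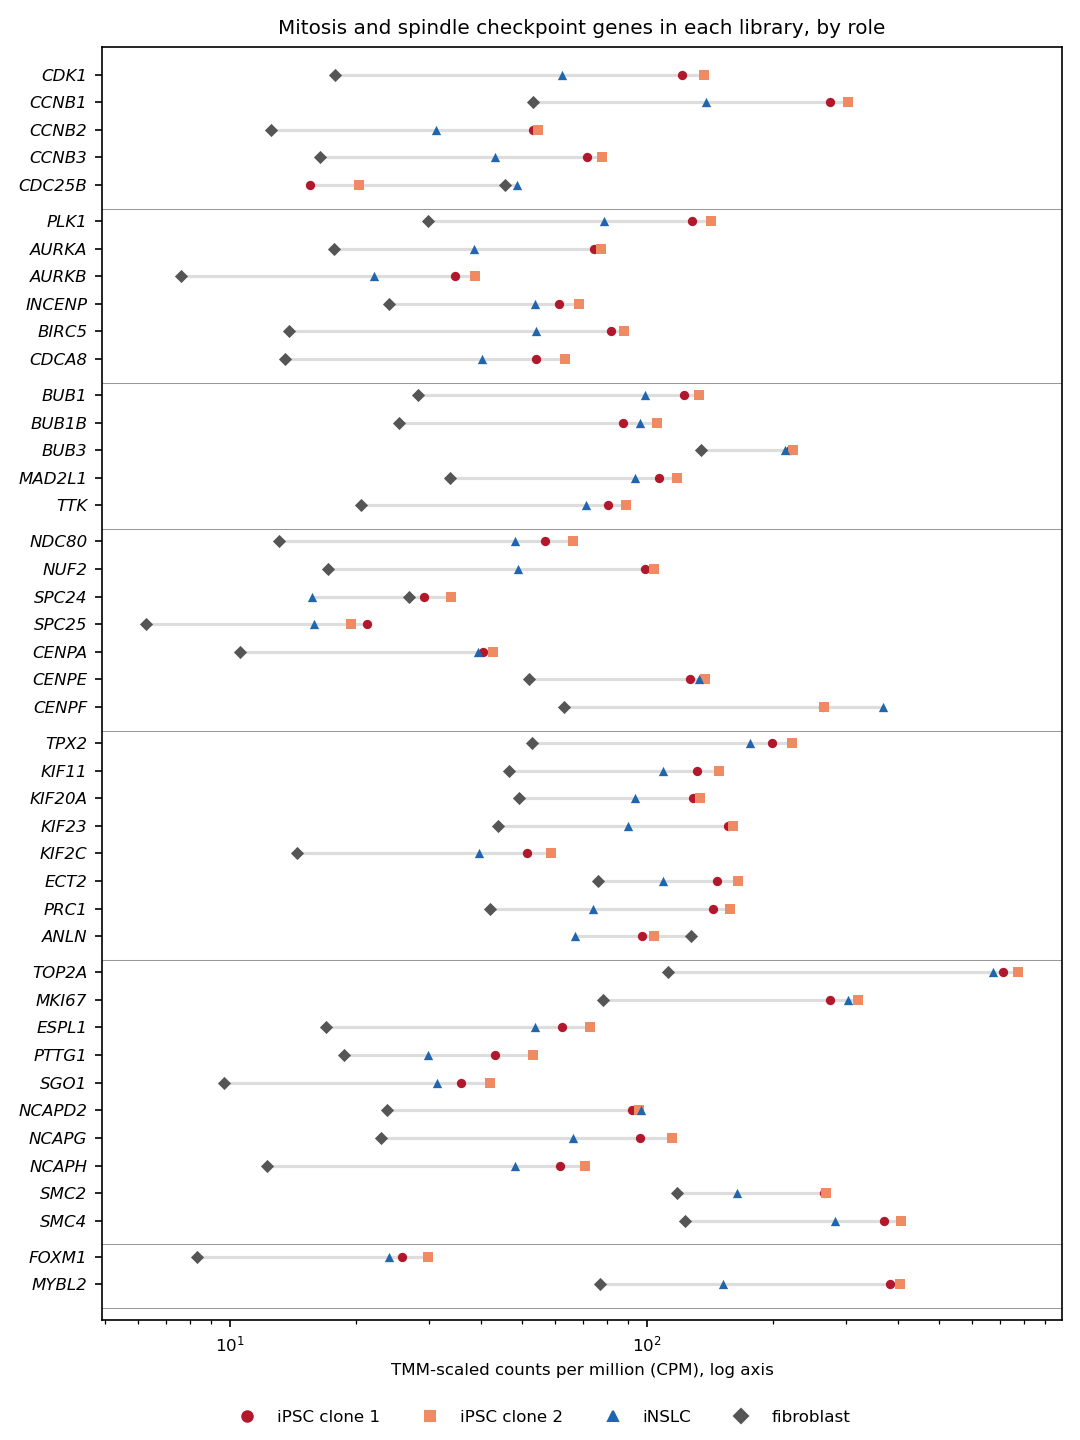
Level of each of the 43 tested genes in each library, in TMM-scaled CPM on a log axis, with 1 symbol per library and lines between role groups. Fibroblasts lie at the low end for 40 genes, and CDC25B, SPC24 and ANLN depart from that pattern.

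Against iNSLCs the difference was smaller. Of the 43 genes, 17 were higher in iPSCs, 2 (CDC25B and CENPF) were lower and 24 did not pass the edgeR test, against 14.1% higher and 14.1% lower over all genes tested. The median log2 ratio was 0.47 for the mitotic genes and 0.00 over all genes. Only 6 genes differed by 2-fold or more upward, namely CDK1, CCNB1, NUF2, SPC24, PRC1 and MYBL2. The 24 genes that were not called had log2 ratios between -0.05 and 0.69, and a p that misses the threshold does not show that the levels were alike.

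The iNSLC and fibroblast groups had 1 library each, so their comparison has no replicate check and no p-value. Of the 43 genes, 33 were at least 2-fold higher in iNSLCs and 0 at least 2-fold lower, against 28.5% and 19.3% over all genes. The median ratio was 2.74 for the mitotic genes and 1.07 over all genes. A 4-fold difference was reached by 3 genes, CENPF, TOP2A and NCAPD2. The iPSC clones lay close together, since 0 of the 43 genes were 2-fold apart, against 9.05% of all genes. Likewise 0 of the 111 other mitosis genes and 0 of the 45 DNA replication genes described below were 2-fold apart. These shares were not matched for level, and in both clones the median level of the 43 genes was above that of all genes tested. The part of level in the closeness of the clones was not tested. Clone 2 was above clone 1 for 42 of the 43 genes, by a median ratio of 1.10, against 8588 of the 15739 genes tested and a median ratio of 1.02.

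In 35 of the 43 genes both iPSC clones lay above iNSLCs and iNSLCs above fibroblasts. In CENPF and NCAPD2 iNSLCs lay above both clones, and in BUB1B, CENPE and MKI67 between them. The 43 genes together took 0.624% and 0.689% of all counts in iPSC clones 1 and 2, 0.504% in iNSLCs and 0.130% in fibroblasts. These are shares of raw totals, without TMM. In TMM-scaled CPM they summed to 5702 and 6216 in the clones, 4538 in iNSLCs and 1758 in fibroblasts, a smaller gap to fibroblasts.

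**Figure D2:**
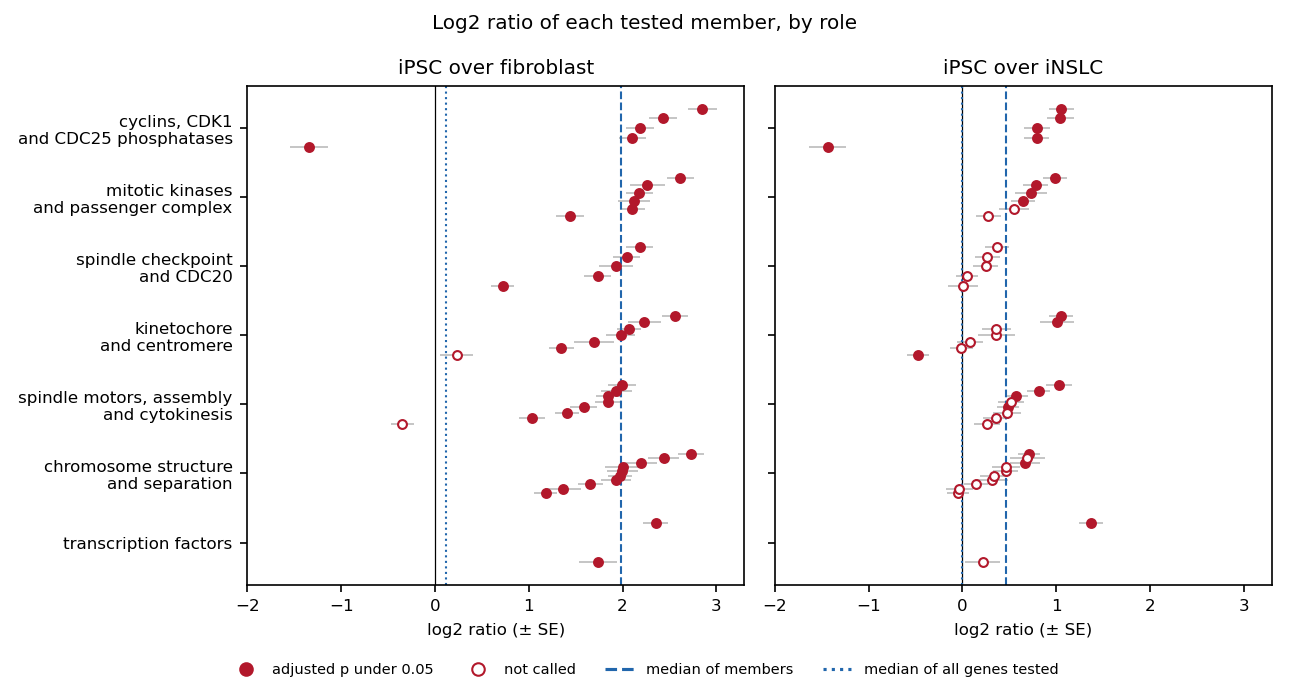
Log2 ratio of each tested gene, iPSC over fibroblast on the left and iPSC over iNSLC on the right, with its standard error, by role; filled symbols passed the edgeR test, and lines give the medians of these genes and of all genes. The medians of these genes are 1.98 on the left and 0.47 on the right.

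The genes of mitotic entry gave the largest difference and also the exception. CDK1, the kinase of mitotic entry (chromosome 14, 64233816 to 64315526), was at 121 and 137 CPM in iPSC clones 1 and 2, 62.5 CPM in iNSLCs and 17.9 CPM in fibroblasts. The order was the same for every step, with the clones close together and fibroblasts far below. CDK1 rose 7.22-fold over fibroblasts (log2 ratio 2.85 ± 0.16, SE, edgeR adjusted p = 0.000384) and 2.06-fold over iNSLCs (log2 ratio 1.04 ± 0.14, SE, edgeR adjusted p = 0.0114). Its iNSLC to fibroblast ratio was 3.5, with a 95% exact binomial interval of 3.22 to 3.81 that covers counting error only.

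CCNB1, the main mitotic cyclin, was at 274 and 303 CPM in iPSC clones 1 and 2, 139 CPM in iNSLCs and 53.4 CPM in fibroblasts. CCNB2, which acts with it, was at 53.1 and 54.6 CPM in iPSC clones 1 and 2, 31.1 CPM in iNSLCs and 12.5 CPM in fibroblasts. CCNB3, a B-type cyclin best known from meiosis, was at 71.6 and 77.8 CPM in iPSC clones 1 and 2, 43.1 CPM in iNSLCs and 16.4 CPM in fibroblasts. All 3 cyclins ranked the libraries as CDK1 did, and all rose in both tests, by log2 ratios of 2.43, 2.10 and 2.19 over fibroblasts and of 1.06, 0.79 and 0.79 over iNSLCs.

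CDC25B, a phosphatase that starts the activation of CDK1 (chromosome 17, 31910825 to 31921588), ran the other way, at 15.5 and 20.4 CPM in iPSC clones 1 and 2, 48.8 CPM in iNSLCs and 45.7 CPM in fibroblasts. Both clones lay well below the iNSLC and fibroblast libraries, which were near each other. CDC25B was 2.54-fold lower in iPSCs than in fibroblasts (log2 ratio -1.34 ± 0.20, SE, edgeR adjusted p = 0.00521) and 2.71-fold lower than in iNSLCs (log2 ratio -1.44 ± 0.20, SE, edgeR adjusted p = 0.0121). Its ratio of clone 2 to clone 1, 1.31 with a counting interval of 1.16 to 1.49, was the largest of the 43 genes. Without clone 2 its log2 ratio to fibroblasts was -1.55, and without clone 1 it was -1.16.

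The mitotic kinases and the chromosomal passenger complex moved together. PLK1, which drives spindle assembly and mitotic exit, was at 128 and 142 CPM in iPSC clones 1 and 2, 78.9 CPM in iNSLCs and 29.9 CPM in fibroblasts. AURKA, the kinase of spindle poles, was at 74.6 and 77.6 CPM in iPSC clones 1 and 2, 38.4 CPM in iNSLCs and 17.7 CPM in fibroblasts. In both the clones were highest and fibroblasts lowest, and both rose over fibroblasts (log2 ratios 2.18 and 2.10) and over iNSLCs (0.78 and 0.99). The AURKA row was named by position, and 45.3% of its exon bases also lie in exons of CSTF1 and FAM210B on the other strand, so its reads are less certain.

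AURKB, the catalytic subunit of the passenger complex, was at 34.5 and 38.7 CPM in iPSC clones 1 and 2, 22.1 CPM in iNSLCs and 7.62 CPM in fibroblasts. BIRC5 (survivin), which brings the complex to centromeres, was at 81.9 and 87.7 CPM in iPSC clones 1 and 2, 54.2 CPM in iNSLCs and 13.8 CPM in fibroblasts. CDCA8 (borealin), its partner there, was at 54.1 and 63.6 CPM in iPSC clones 1 and 2, 40.1 CPM in iNSLCs and 13.5 CPM in fibroblasts. These 3 subunits share the order of the kinases, and BIRC5 had the largest log2 ratio of the group, 2.62 ± 0.14 (SE, edgeR adjusted p = 0.000372 against fibroblasts). INCENP, the scaffold, was at 61.4 and 68.6 CPM in iPSC clones 1 and 2, 53.7 CPM in iNSLCs and 24.0 CPM in fibroblasts, with iNSLCs near the clones. All 6 tested genes of this group rose over fibroblasts and 4 rose over iNSLCs, against 29.6% and 14.1% of all genes tested. INCENP (log2 ratio 0.28 ± 0.14, SE, edgeR adjusted p = 0.195) and CDCA8 (0.55 ± 0.16, edgeR adjusted p = 0.0636) did not pass the test against iNSLCs. The AURKB call against iNSLCs (0.73 ± 0.17, SE, edgeR adjusted p = 0.0404) was lost with DESeq2 (adjusted p = 0.0843).

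All 5 spindle checkpoint genes tested rose over fibroblasts, against 29.6% of all genes tested. Between iPSCs and iNSLCs 0 of the 5 passed the test, where 14.1% of all genes were called in each direction. BUB1, a kinase that docks the checkpoint at kinetochores, was at 122 and 133 CPM in iPSC clones 1 and 2, 98.9 CPM in iNSLCs and 28.2 CPM in fibroblasts. BUB1B (BUBR1), part of the inhibitor of CDC20, was at 87.3 and 106 CPM in iPSC clones 1 and 2, 95.9 CPM in iNSLCs and 25.3 CPM in fibroblasts. TTK (MPS1), the kinase that starts the signal, was at 80.7 and 88.9 CPM in iPSC clones 1 and 2, 71.5 CPM in iNSLCs and 20.5 CPM in fibroblasts. In all 3 the iNSLC level was near that of the clones, and for BUB1B it lay between them. MAD2L1, the MAD2 subunit of the inhibitor, was at 107 and 118 CPM in iPSC clones 1 and 2, 93.3 CPM in iNSLCs and 33.7 CPM in fibroblasts. BUB3, the adaptor of BUB1 and BUBR1, was at 219.6 and 224 CPM in iPSC clones 1 and 2, 214 CPM in iNSLCs and 134 CPM in fibroblasts, and fibroblasts came closest to the other libraries here.

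The 5 genes rose over fibroblasts by log2 ratios of 2.18 (BUB1), 2.05 (TTK), 1.93 (BUB1B), 1.74 (MAD2L1) and 0.72 (BUB3). BUB3 had the smallest rise of all 40 genes, 1.65-fold (edgeR adjusted p = 0.0072). Against iNSLCs their log2 ratios were between 0.01 (BUB1B) and 0.37 (BUB1, edgeR adjusted p = 0.094). The BUB1B ratio to iNSLCs took the other sign, -0.002, with total counts.

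Of the 7 kinetochore and centromere genes 6 rose over fibroblasts, where 29.6% of all genes tested rose. Against iNSLCs 2 rose and 1 fell, where 14.1% of all genes rose and 14.1% fell. SPC24 and CENPF departed from the rest. NUF2, a subunit of the NDC80 complex, was at 98.6 and 104 CPM in iPSC clones 1 and 2, 49.0 CPM in iNSLCs and 17.2 CPM in fibroblasts. NDC80, the subunit that grips the microtubule, was at 56.9 and 66.4 CPM in iPSC clones 1 and 2, 48.1 CPM in iNSLCs and 13.1 CPM in fibroblasts. SPC25, on the kinetochore side of the complex, was at 21.2 and 19.4 CPM in iPSC clones 1 and 2, 15.8 CPM in iNSLCs and 6.26 CPM in fibroblasts. Each of these 3 rose over fibroblasts, by log2 ratios of 2.56, 2.23 and 1.70. Over iNSLCs only NUF2 of the 3 was called, at 1.05 ± 0.13 (SE, edgeR adjusted p = 0.00853).

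SPC24, the partner of SPC25 (chromosome 2, 69884305 to 69890328), was at 29.2 and 33.8 CPM in iPSC clones 1 and 2, 15.7 CPM in iNSLCs and 26.9 CPM in fibroblasts. Fibroblasts lay just below the clones and iNSLCs were lowest, an order seen in no other gene of the 43. Its log2 ratio was 0.23 ± 0.17 against fibroblasts (SE, edgeR adjusted p = 0.302) and 1.01 ± 0.18 against iNSLCs (SE, edgeR adjusted p = 0.0215). With total counts the first ratio became 0.80, with an edgeR adjusted p of 0.0159. The iNSLC to fibroblast ratio was 0.583, with a counting interval of 0.522 to 0.65.

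CENPF, a large protein of the outer kinetochore that builds up in G2 (chromosome 9, 128949182 to 129008793), was at 264 and 266 CPM in iPSC clones 1 and 2, 368 CPM in iNSLCs and 63.0 CPM in fibroblasts. The iNSLC library was highest and the clones were almost equal. CENPF rose 4.21-fold over fibroblasts (log2 ratio 2.07 ± 0.13, SE, edgeR adjusted p = 0.000475) and was 1.39-fold lower in iPSCs than in iNSLCs (log2 ratio -0.47 ± 0.11, SE, edgeR adjusted p = 0.0422). The call against iNSLCs was lost with DESeq2, at an adjusted p of 0.0523. CENPA, the histone variant that marks centromeres, was at 40.5 and 42.7 CPM in iPSC clones 1 and 2, 39.3 CPM in iNSLCs and 10.5 CPM in fibroblasts. CENPE, the kinesin that carries chromosomes to the spindle middle, was at 127 and 138 CPM in iPSC clones 1 and 2, 133 CPM in iNSLCs and 51.9 CPM in fibroblasts. For both, the iNSLC library was level with the clones, and the log2 ratios were 1.98 and 1.35 over fibroblasts and 0.08 and -0.01 over iNSLCs, of which only those over fibroblasts were called. The CENPE ratio to iNSLCs took the other sign with RLE scaling (2.46e-05) and with DESeq2 (2.65e-05), both next to 0.

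Of the 8 genes of the spindle and of cytokinesis 7 rose over fibroblasts and 4 over iNSLCs, against 29.6% and 14.1% of all genes tested. TPX2, which activates AURKA on the spindle, was at 199.7 and 223 CPM in iPSC clones 1 and 2, 176 CPM in iNSLCs and 53.0 CPM in fibroblasts. KIF11 (Eg5), the motor that pushes the poles apart, was at 131 and 149 CPM in iPSC clones 1 and 2, 109 CPM in iNSLCs and 46.7 CPM in fibroblasts. KIF2C (MCAK), which takes microtubules down at centromeres, was at 51.4 and 58.7 CPM in iPSC clones 1 and 2, 39.5 CPM in iNSLCs and 14.4 CPM in fibroblasts. For these 3 the clones were highest, iNSLCs a little lower and fibroblasts far below, and each rose over fibroblasts (log2 ratios 1.99, 1.58 and 1.93) but was not called against iNSLCs (0.26, 0.36 and 0.48).

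KIF23, the motor of the centralspindlin complex, was at 156 and 160.2 CPM in iPSC clones 1 and 2, 90.0 CPM in iNSLCs and 43.9 CPM in fibroblasts. PRC1, which bundles microtubules of the midzone, was at 144 and 158 CPM in iPSC clones 1 and 2, 74.0 CPM in iNSLCs and 42.0 CPM in fibroblasts. KIF20A, a motor that brings PLK1 to the midzone, was at 129 and 134 CPM in iPSC clones 1 and 2, 93.7 CPM in iNSLCs and 49.3 CPM in fibroblasts. These midzone genes were called higher in both tests, by log2 ratios of 1.85, 1.84 and 1.41 over fibroblasts and of 0.81, 1.03 and 0.49 over iNSLCs. Of the KIF20A exon bases, 32.1% also lie in exons of BRD8 or CDC23 on the other strand, and its call against iNSLCs was lost with DESeq2 (adjusted p = 0.076).

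ECT2, the exchange factor that switches on RHOA at the cleavage site, was at 147 and 165 CPM in iPSC clones 1 and 2, 109 CPM in iNSLCs and 76.3 CPM in fibroblasts. Its steps were even and small, with a log2 ratio of 1.03 over fibroblasts and of 0.51 ± 0.14 over iNSLCs (SE, edgeR adjusted p = 0.0537, not called). ANLN (anillin), a scaffold of the contractile ring that also binds the interphase cytoskeleton (chromosome 18, 37645004 to 37708565), was at 96.9 and 104 CPM in iPSC clones 1 and 2, 67.3 CPM in iNSLCs and 128 CPM in fibroblasts. Fibroblasts were highest and iNSLCs lowest on this scale.

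The ANLN log2 ratio was -0.35 ± 0.12 against fibroblasts (SE, edgeR adjusted p = 0.0626) and 0.58 ± 0.13 against iNSLCs (SE, edgeR adjusted p = 0.0328). Its ratio of iNSLCs to fibroblasts was 0.527, with a counting interval of 0.501 to 0.555. The sign against fibroblasts depended on the scaling, being 0.22 on the log2 scale with total counts. With no filter on low counts, or with only the iPSC and fibroblast libraries in the fit, 2 genes of the group were called lower instead of 1.

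Among genes of chromosome structure and separation, all 10 rose over fibroblasts, where 29.6% of all genes tested rose. TOP2A, the topoisomerase that untangles sister chromatids (chromosome 12, 22001436 to 22031112), was at 712 and 777 CPM in iPSC clones 1 and 2, 674 CPM in iNSLCs and 112 CPM in fibroblasts. MKI67, the Ki-67 protein that coats mitotic chromosomes, was at 274 and 319.5 CPM in iPSC clones 1 and 2, 304 CPM in iNSLCs and 78.2 CPM in fibroblasts. In both the iNSLC level was about that of the clones, and fibroblasts lay far below. TOP2A rose 6.63-fold over fibroblasts (log2 ratio 2.73 ± 0.14, SE, edgeR adjusted p = 0.000344) and MKI67 3.8-fold (log2 ratio 1.93 ± 0.16, SE, edgeR adjusted p = 0.000958). Against iNSLCs their log2 ratios were 0.14 and -0.03, and neither was called. The TOP2A ratio of iNSLCs to fibroblasts, 6.0 with a counting interval of 5.82 to 6.19, was the highest of the 43 genes.

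ESPL1 (separase), which cuts cohesin at anaphase, was at 62.6 and 72.8 CPM in iPSC clones 1 and 2, 53.7 CPM in iNSLCs and 16.9 CPM in fibroblasts. PTTG1 (securin), its inhibitor, was at 43.1 and 53.1 CPM in iPSC clones 1 and 2, 29.8 CPM in iNSLCs and 18.7 CPM in fibroblasts. SGO1, which shields cohesin at centromeres until then, was at 35.7 and 41.9 CPM in iPSC clones 1 and 2, 31.3 CPM in iNSLCs and 9.65 CPM in fibroblasts. The separase and shugoshin genes had nearly the same log2 ratio over fibroblasts, 2.0 and 2.01, and securin a smaller one, 1.36. None of the 3 was called against iNSLCs, where PTTG1 had the largest log2 ratio that was not called (0.69 ± 0.19, SE, edgeR adjusted p = 0.0544).

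The condensin genes make the ring that compacts mitotic chromosomes. SMC2, its first ATPase arm, was at 266 and 269 CPM in iPSC clones 1 and 2, 164 CPM in iNSLCs and 118 CPM in fibroblasts. SMC4, the other arm, was at 370.2 and 406 CPM in iPSC clones 1 and 2, 282 CPM in iNSLCs and 123 CPM in fibroblasts. The arms, which condensin I shares with condensin II, rose less over fibroblasts (log2 ratios 1.18 and 1.66) than the subunits particular to condensin I, though the differences between subunits were not tested. NCAPH, the clamp that closes the ring, was at 61.9 and 70.9 CPM in iPSC clones 1 and 2, 48.1 CPM in iNSLCs and 12.3 CPM in fibroblasts. NCAPG was at 96.3 and 115 CPM in iPSC clones 1 and 2, 66.3 CPM in iNSLCs and 23.0 CPM in fibroblasts. NCAPD2 was at 92.0 and 95.4 CPM in iPSC clones 1 and 2, 96.8 CPM in iNSLCs and 23.8 CPM in fibroblasts. The log2 ratios of these 3 over fibroblasts were 2.44, 2.20 and 1.98, and iNSLCs stood below the clones for NCAPH and NCAPG but at their level for NCAPD2. Over iNSLCs, SMC2 (0.71 ± 0.12, SE, edgeR adjusted p = 0.0185) and NCAPG (0.67 ± 0.16, SE, edgeR adjusted p = 0.0404) rose. Exon bases shared with other rows made up 35.9% of NCAPG and 21.4% of SMC4.

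Of the transcription factors that switch these genes on, MYBL2 stood out between iPSCs and iNSLCs. MYBL2, which works with the MuvB complex (chromosome 17, 46256191 to 46287929), was at 383 and 405 CPM in iPSC clones 1 and 2, 152 CPM in iNSLCs and 77.2 CPM in fibroblasts. The clones were at more than 2-fold the iNSLC level, and iNSLCs were above fibroblasts. MYBL2 rose 5.11-fold over fibroblasts (log2 ratio 2.35 ± 0.14, SE, edgeR adjusted p = 0.000401) and 2.59-fold over iNSLCs (log2 ratio 1.37 ± 0.13, SE, edgeR adjusted p = 0.00499), the largest upward ratio to iNSLCs of the 43 genes. FOXM1, a forkhead factor of the same genes, was at 25.8 and 29.8 CPM in iPSC clones 1 and 2, 24.0 CPM in iNSLCs and 8.34 CPM in fibroblasts. It rose 3.34-fold over fibroblasts (log2 ratio 1.74 ± 0.20, SE, edgeR adjusted p = 0.00247) and was not called against iNSLCs (log2 ratio 0.22 ± 0.19, SE, edgeR adjusted p = 0.422).

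Levels of different genes were compared as TPM, in which counts are divided by exon length before they are scaled to a common library size. The median of the 43 genes was 63.4 and 73.2 TPM in iPSC clones 1 and 2, 53.4 TPM in iNSLCs and 15.5 TPM in fibroblasts. Over all genes tested the median was 14.3 and 14.5 TPM in iPSC clones 1 and 2, 16.7 TPM in iNSLCs and 11.3 TPM in fibroblasts. In both clones MYBL2, TOP2A, CCNB1, PLK1, BUB3 and BIRC5 were the 6 most abundant of the group by TPM, in that order. In fibroblasts the order by TPM began with BUB3, SPC24, MYBL2 and ANLN. FOXM1 was the least abundant in every library, at 12.9 and 15.2 TPM in iPSC clones 1 and 2, 12.9 TPM in iNSLCs and 3.19 TPM in fibroblasts.

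The subunits of each complex were set side by side by TPM, with no test. In the NDC80 complex the most abundant subunit exceeded the least abundant 5.16-fold and 5.95-fold in iPSC clones 1 and 2, 3.44-fold in iNSLCs and 15.8-fold in fibroblasts. In fibroblasts the extremes were SPC24 at 85.3 TPM and NDC80 at 5.41 TPM, whereas in the iPSC clones they were NUF2 at 157 and 169 TPM and SPC25 at 30.4 and 28.4 TPM. The spread within the passenger complex was 3.88-fold and 3.54-fold in the clones, 3.47-fold in iNSLCs and 2.86-fold in fibroblasts. For condensin I it was 4.64-fold and 4.44-fold in the clones, 4.55-fold in iNSLCs and 7.78-fold in fibroblasts, with SMC4 highest and NCAPH lowest in each. Among B-type cyclins CCNB1 was highest and CCNB3 lowest in every library.

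**Figure D3:**
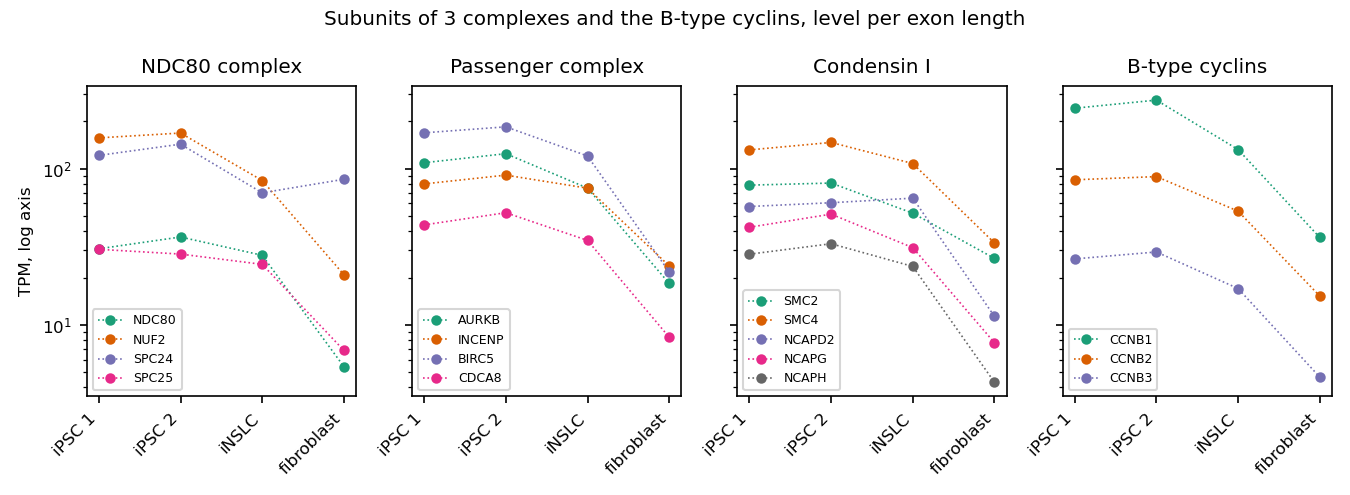
Level per exon length (TPM, log axis) of the subunits of the NDC80 complex, the chromosomal passenger complex and condensin I, and of the B-type cyclins, in each library; dotted lines only join the points of 1 gene. SPC24 is the gene whose fibroblast level, 85.3 TPM, exceeds its iNSLC level, 69.9 TPM.

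CDC20, the target of the checkpoint, could not be measured in these files. Its row (chromosome 6, 167882744 to 167890575) had 6 and 4 counts in iPSC clones 1 and 2, 6 in iNSLCs and 9 in fibroblasts, while BUB1B, its partner in the checkpoint, had 2067 and 4838 counts in the clones, 2747 in iNSLCs and 1173 in fibroblasts. Of the exon bases of that row, 80.6% also lie in exons of ELOVL1, a fatty acid elongase on the other strand. The ELOVL1 row itself held 49 and 102 counts in the clones, 70 in iNSLCs and 151 in fibroblasts. A read that fits more than 1 row is by default left out by the counting program, and neither the strand setting nor the treatment of such reads is stated in the sources used, so the low CDC20 counts say nothing about its RNA.

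**Figure D4:**
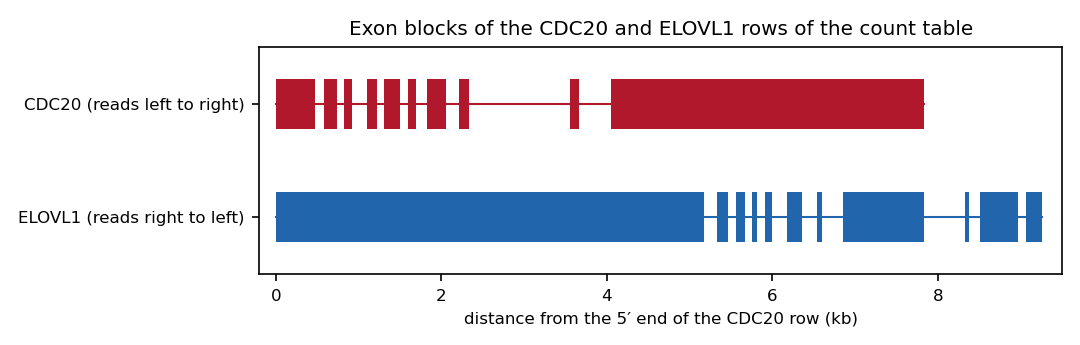
Exon blocks (boxes) of the CDC20 and ELOVL1 rows by distance from the 5′ end of the CDC20 row, in kb; the genes lie on opposite strands. Exons of ELOVL1 cover 80.6% of the CDC20 exon bases.

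CDC25A, the phosphatase that acts before and at mitotic entry, had 0 counts in every library. Its row lies on an unplaced scaffold, and 0 of the 1521 rows on such scaffolds had a count in any library, 0 of 3 on its own, so its 0 counts are no measure of expression. CCNA2 and PLK4 had no row of their own. The CCNA2 locus (chromosome 8, 102260346 to 102266274) lies whole within the BBS7 row and in part within the EXOSC9 row, and PLK4, the kinase of centriole duplication, lies whole within the HSPA4L row, so that their reads cannot be told from those of the other genes.

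CDC25C, the phosphatase that completes CDK1 activation, also had no row by name. The row at its exact RefSeq coordinates (chromosome 2, 140289156 to 140323696) carries by identifier the name GFRA3, whose own RefSeq locus lies apart from it at 140263297 to 140283227. That row was at 31.8 and 34.1 CPM in iPSC clones 1 and 2, 19.9 CPM in iNSLCs and 6.13 CPM in fibroblasts. Its levels fall in the order shared by 35 of the mitotic genes, with a log2 ratio over fibroblasts of 2.43 ± 0.19 (SE, edgeR adjusted p = 0.000814) and over iNSLCs of 0.73 (edgeR adjusted p = 0.0403). Because of its name it was kept out of all counts above. With it the higher genes would number 41 against fibroblasts and 18 against iNSLCs.

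Other mitosis genes outside the 48 were taken from textbook lists. Of 118 such genes 113 had a row and 111 were tested. Over fibroblasts 73 rose and 7 fell, against 29.6% higher and 27.5% lower over all genes tested. Their median log2 ratio was 1.10. Against iNSLCs 18 (16.2%) rose and 2 fell, with a median of 0.17, a share of higher genes near the 14.1% over all genes tested, and with DESeq2 11 rose and 2 fell. In iNSLCs 49 of the 111 were at least 2-fold above fibroblasts, against 28.5% of all genes. With total counts the calls against fibroblasts were 95 higher and 3 lower, where 44.9% of all genes were higher and 16.8% lower.

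The counts by list stand against 29.6% higher and 27.5% lower than in fibroblasts over all genes tested. Of 8 other mitotic kinesins 7 rose over fibroblasts, led by KIF15 (2.66 on the log2 scale) and KIF18B (2.59). Of 17 centromere genes 14 rose, among them MIS18A (2.85) and HJURP (2.28), which load new CENPA. Of 15 further genes of spindle assembly and cytokinesis 14 rose, with HASPIN, the histone kinase that recruits the passenger complex, at 3.05, and NEK2 at 2.35. All 3 remaining condensin subunits rose, NCAPG2 most at 2.21. Of 16 other genes of the outer kinetochore and checkpoint 11 rose and 0 fell, with SGO2 (2.13) and ZWINT (2.07) in front and MIS12 (-0.19, not called) at the other end.

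WEE1, the kinase that opposes CDC25 at CDK1, was at 161 and 169 CPM in iPSC clones 1 and 2, 51.1 CPM in iNSLCs and 26.0 CPM in fibroblasts. The clones were far above both other libraries, and WEE1 rose over fibroblasts (log2 ratio 2.67 ± 0.14, SE, edgeR adjusted p = 0.000334) and over iNSLCs (log2 ratio 1.69 ± 0.13, SE, edgeR adjusted p = 0.00334), where CDC25B fell. MASTL (Greatwall), which blocks the phosphatase that would undo CDK1 action, was at 48.6 and 47.7 CPM in iPSC clones 1 and 2, 21.3 CPM in iNSLCs and 7.56 CPM in fibroblasts, and it rose in both tests. Of the 8 tested genes of mitotic entry 6 rose over fibroblasts and 3 over iNSLCs, against 29.6% and 14.1% of all genes tested. CCNA1, the cyclin A of germ cells, was called higher too, at 28 and 65 counts in iPSC clones 1 and 2, 94 in iNSLCs and 2 in fibroblasts, too few in fibroblasts for a fold.

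Of 16 genes of the anaphase-promoting complex and its partners, 5 rose and 3 fell over fibroblasts, with a median log2 ratio of 0.18, against 29.6% higher and 27.5% lower over all genes tested. These counts depended on the scaling, being 11 higher and 1 lower (median log2 ratio 0.75) with total counts, under which 44.9% of all genes were higher and 16.8% lower, and on the tool, with 5 higher and 1 lower by DESeq2. Those that rose most were FBXO5 (EMI1, the inhibitor, 2.76) and the E2 enzymes UBE2S (2.52) and UBE2C (2.02), whereas ANAPC13 (-1.07), CDC26 (-1.0) and ANAPC4 (-0.42), which are core subunits, fell, ANAPC4 taking the other sign (0.15) with total counts. Of 13 cohesin genes 5 rose and 1 (STAG1, -0.58) fell, against 10 and 0 with total counts. CDCA5 (sororin, which locks cohesin on replicated DNA) was at 84.3 and 93.1 CPM in iPSC clones 1 and 2, 62.8 CPM in iNSLCs and 7.43 CPM in fibroblasts, a log2 ratio over fibroblasts of 3.58 ± 0.16 (SE, edgeR adjusted p = 0.000259). Of 5 centriole genes 4 rose and CEP63 fell (-1.44).

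The DREAM and MuvB genes hold cell cycle genes silent in resting cells or turn them on. Of 10 tested, 4 rose and 2 fell over fibroblasts, against 29.6% higher and 27.5% lower over all genes tested. The counts were 4 and 1 with DESeq2 and 5 and 1 with total counts. Their median log2 ratio was 0.12, against 0.11 over all genes tested. RBL2 (p130), the pocket protein of the repressive complex, was at 6.67 and 5.88 CPM in iPSC clones 1 and 2, 29.4 CPM in iNSLCs and 26.0 CPM in fibroblasts. Its clones were lowest, and the log2 ratio was -2.05 ± 0.19 against fibroblasts (SE, edgeR adjusted p = 0.00128) and -2.23 ± 0.19 against iNSLCs (SE, edgeR adjusted p = 0.0042). RBL1 (p107) rose (0.90), as did E2F5 (3.16), LIN9 (1.04) and RBBP4 (0.99), and LIN54 fell (-0.46), with the other sign (0.11) under total counts. Shared exon bases made up 67.4% of CDC26 and 34.1% of HASPIN.

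**Figure D5:**
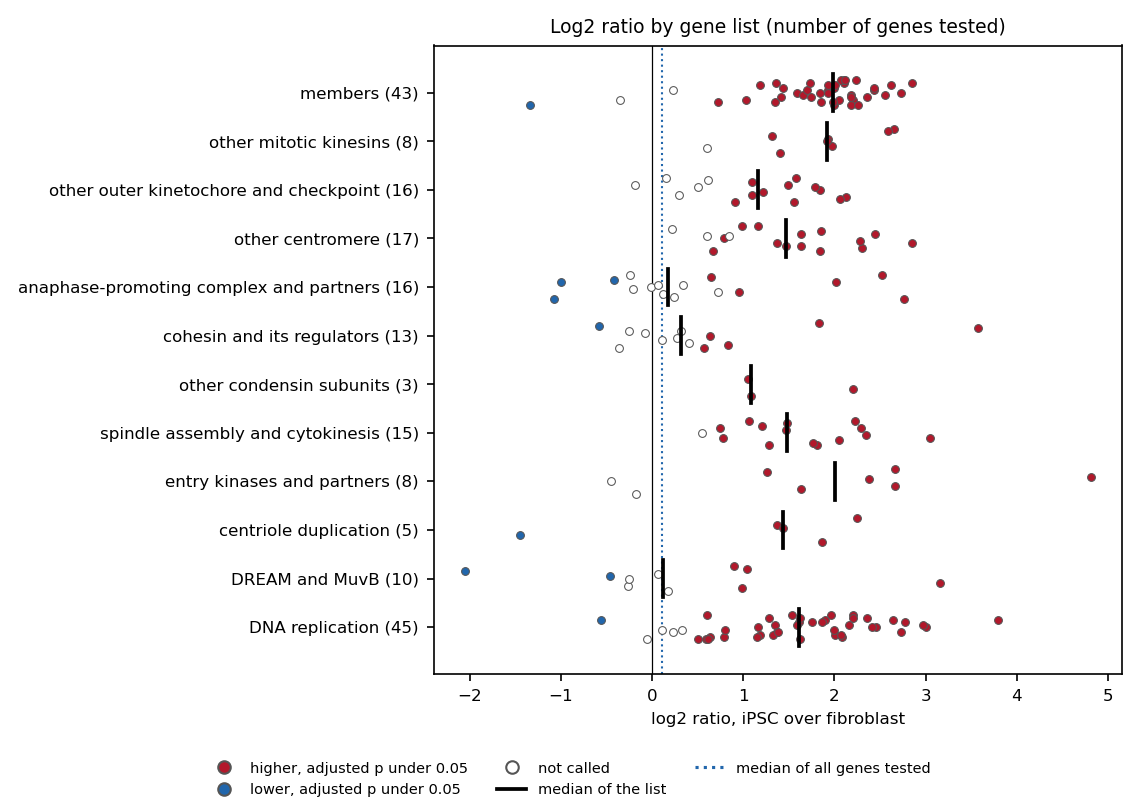
Log2 ratio of each tested gene, iPSC over fibroblast, for the mitotic and checkpoint genes, 10 lists of other mitosis genes and DNA replication genes, with the number of genes tested in brackets; bars mark list medians and the dotted line the median of all genes, 0.11. List medians run between 0.12 (DREAM and MuvB) and 2.01 (entry kinases and partners).

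DNA replication genes, the other large set tied to the cell cycle, gave a similar count. Of 45 tested 40 rose and 1 (ORC4) fell over fibroblasts, against 29.6% higher and 27.5% lower over all genes tested. The median log2 ratio was 1.61, and ORC4 took the other sign (0.02) with total counts. Against iNSLCs 13 rose and 1 (ORC5) fell, with a median of 0.34, where 14.1% of all genes rose and 14.1% fell, and DESeq2 called 10 higher and 0 lower. In iNSLCs 31 of the 45 were at least 2-fold above fibroblasts, against 28.5% of all genes. The replication genes with the largest log2 ratios were GINS4 (3.80), ORC1 (3.0) and MCM2 (2.97). The mitotic and the replication genes share their libraries, and the difference between the groups was not tested.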

How the data were processed

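RNA was sequenced from 2 iPSC clones, 1 iNSLC culture and 1 fibroblast culture of 1 pig. The deposited values are whole counts of reads per gene that the authors made, per the submitters' processing notes, with Trim Galore 0.4.0, STAR 2.5.3a and featureCounts 1.5.2 on Sscrofa11.1, without normalization. Strand use in counting is not stated in the sources used. The 4 tables of single libraries held the same values as the joint table.

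Rows were named by Ensembl identifier or, failing that, by a single RefSeq gene that overlapped at least 80% of the shorter gene. Of 13089 rows with both names 94.5% had the same. Counts were scaled by TMM and tested with the quasi-likelihood F test of edgeR 4.0.16 (limma 3.58.1, R 4.3.3), two-sided, after filterByExpr, on 4 libraries in 3 groups, p-values being adjusted by Benjamini-Hochberg over 15739 genes, threshold 0.05. The common biological coefficient of variation was 0.198. A standard error is the log2 ratio divided by the root of F. On simulated data for iPSCs against fibroblasts (15347 genes), the test called 47 of 50 genes raised 4-fold, 9 of 50 raised 2-fold and 0.0528% of unchanged genes. The simulation changed far fewer genes than were called in the real data and gave every gene the common coefficient of variation. These shares therefore do not carry over to the real test. Between single libraries genes were counted past 2-fold, with libraries under 3 counts raised to 3, and intervals are 95% exact conditional binomial. Depths of 21640374 to 62421521 counts gave a floor of 3 counts, 0.0648 to 0.127 CPM.

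Each member may be named. Other lists give up to 4 genes by size of ratio and those against their list. The members and lists were chosen with earlier results of these data known. Alternatives were RLE and total-count scaling, no filter, DESeq2 1.42.0, only the groups compared, identifier names only, each clone left out, and a 4-fold threshold. Searches of promoters for motifs were not run.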

Additional observations from a re-analysis of the deposited data

How the results depend on the processing

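The count of mitotic genes that rose over fibroblasts was between 36 and 41 under every alternative, against 40. The count that rose over iNSLCs was between 14 and 19, against 17, except where a clone was left out. The lowest counts, 36 and 14, came from a shorter list without AURKA, KIF20A, NCAPG and SMC4, not from calls lost among the genes kept. Without a clone there is no residual degree of freedom, so genes past 2-fold were counted: 38 to 39 higher and 1 lower against fibroblasts, and 2 to 7 higher and 1 lower against iNSLCs. By the same 2-fold rule both clones together gave 39 and 1, and 6 and 1. Of the genes called lower against fibroblasts there were 2 with no filter and 2 with only the groups compared, against 1. Against iNSLCs DESeq2 called 1 lower, against 2. At 4-fold, 3 genes stood higher in iNSLCs than in fibroblasts, against 33 at 2-fold. Signs turned for ANLN against fibroblasts with total counts (0.22), and against iNSLCs for BUB1B with total counts (-0.0018) and for CENPE with RLE scaling (2.46e-05) and DESeq2 (2.65e-05).

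A further pair of alternatives was chosen after seeing the data. With the row at the CDC25C locus 41 genes rose over fibroblasts and 18 over iNSLCs. Among genes that shared under 20% of exon bases with other rows 36 and 14 did, with AURKA, KIF20A, NCAPG and SMC4 left out. Against iNSLCs, RLE scaling added ECT2 (adjusted p = 0.0482) and PTTG1 (adjusted p = 0.0493). A single residual degree of freedom, 1 library in 2 of the groups, 1 animal, and states that differ in medium and passage limit every comparison. Low counts limit CDC20 in every library and CCNA1 in fibroblasts.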
